A study of Homo sapiens with 3 samples.

Results

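The genes described here encode the nuclear-encoded subunits and the NDUFAF assembly factors of mitochondrial complex I, measured in Cal62 cells, a human thyroid tumor cell line. The members were chosen by a rule on names, with earlier results of these data known: every protein-coding gene of the expression table whose symbol has the NDUFA, NDUFAB, NDUFAF, NDUFB, NDUFC, NDUFS or NDUFV form followed by a number. This rule found 46 of the 58333 genes in the table, of which 38 carry the name of a subunit and 8 are NDUFAF assembly factors. Of the 38 subunits, 7 are core subunits and 31 are supernumerary subunits. NDUFA4 is counted among the supernumerary subunits because of its symbol, although its protein is now assigned to complex IV, so medians over the subunits are also given without it. All 46 members passed the filter on low values, a mean deposited log2 value of at least the log2 of 10.

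Cal62 cells were grown in DMEM with 10% FBS and transfected, with Lipofectamine RNAiMAX, with a control siRNA (siControl) or with 1 of 2 siRNAs against ADAR1 (siADAR1 #1 and siADAR1 #2). Every group thus shared the cell line, the medium and a transfection, and no untransfected cells were analysed here. Sequencing of poly(A)+ RNA used paired-end reads of 75 bases, and the table holds 2 columns of values per transfection, taken as the 2 biological replicates that the study's methods give. The sample labels do not say how the cultures of a group were separated, so the tests measure only the spread between these libraries, which may be technical. In bulk libraries such as these, fewer cells of a type and less RNA per cell cannot be told apart.

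Complex I (NADH:ubiquinone oxidoreductase) is the entry point of the mitochondrial respiratory chain. It takes electrons from NADH through a flavin and a chain of iron-sulfur clusters in its matrix arm, passes them to ubiquinone, and pumps protons through its membrane arm. The core subunits carry out this chemistry and are made partly from nuclear and partly from mitochondrial DNA, while the supernumerary subunits surround and stabilize the core. Assembly factors help to build the complex from modules and are not part of the finished enzyme. ADAR1 is an enzyme that converts adenosine to inosine in double-stranded RNA.

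The libraries held between 30114840 and 50029763 reads assigned to genes, with a median of 43005907. A count of 3 reads, taken as the limit below which a gene is at the floor, stood for 2.81 to 4.39 normalized counts, and the members lay far above it, with 114 reads (NDUFAF3) to 7555 reads (NDUFS1). This limit covers counting error only. ADAR itself was at 10906 and 11701 normalized counts in siControl, 1328 and 2246 with siADAR1 #1, and 1663 and 2928 with siADAR1 #2, which is 15.8% and 20.3% of the siControl mean. Of 7 thyroid follicular markers, NKX2-1 had 0 reads in every library, TG had at most 55 reads, and PAX8 carried most of the signal. Summed reads of these 7 markers were 13130 and 15799 in siControl, 11238 and 12121 with siADAR1 #1, and 2486 and 3895 with siADAR1 #2. PAX8 alone had 12789 and 15557 reads in siControl, 10984 and 12000 with siADAR1 #1, and 2242 and 3744 with siADAR1 #2. The mesenchymal list (VIM, FN1 and CDH2) summed to 247852 to 276250 reads in siControl, 84314 to 104393 with siADAR1 #1 and 75629 to 104405 with siADAR1 #2. The epithelial list of 5 genes summed to 72652 to 85204, 81453 to 113569 and 46277 to 68544 reads in the same order. Its genes did not move together: with siADAR1 #2 some had more and some fewer reads than in siControl. Of 3 leukocyte markers, CD3E was at 0 and PTPRC had at most 5 reads, while CD14 had 41 and 34 reads in siControl, 127 and 90 with siADAR1 #1, and 19 and 21 with siADAR1 #2. All these marker values are reads that are not adjusted for depth. The median total was 47696774 reads in siControl, 44121154 with siADAR1 #1 and 34953502 with siADAR1 #2, so lower sums with siADAR1 #2 partly reflect depth. The part of these marker lists in the changes below was not tested.

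In siControl cells the subunits were expressed at a higher level than the assembly factors. Per kilobase of the canonical transcript (GENCODE release 44), the median level was 3419 normalized counts over the 38 subunits, 3520 without NDUFA4, and 555 over the 8 assembly factors, while the median over 20710 genes tested with a known length was 127. Every member lay above the median of all genes tested, and 28 of the 46 lay above percentile 90, including 1 assembly factor. The highest level per kilobase was that of NDUFB9, a membrane arm subunit, at 10948 normalized counts, followed by NDUFA1 at 8423 and NDUFB4 at 8330. The lowest was that of NDUFAF5, which modifies the core subunit NDUFS7, at 260 normalized counts per kilobase. Among the assembly factors NDUFAF2, a relative of the subunit NDUFA12 that acts late in the assembly of the matrix arm, had the highest level, at 2992 normalized counts per kilobase. These levels divide by the whole canonical transcript, which is over 4000 bases in 7 members, among them NDUFS1 with 11660 and NDUFA9 with 8356 bases, so their levels per kilobase are low beside their counts.

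A gene was called when its adjusted p in limma (Benjamini-Hochberg, over 20858 genes) was under 0.05 and its log2FC lay beyond 0.5 in either direction. With siADAR1 #1 against siControl, 6 of the 46 members were called, 1 higher and 5 lower, where 16.8% of all genes tested were called, 6.18% higher and 10.6% lower. With siADAR1 #2 against siControl, 13 members were called and all were lower, 28.3% of the members, where 26.6% of all genes tested were called, 11.1% higher and 15.5% lower. The 13 were 9 of 31 supernumerary subunits and 4 of 8 assembly factors, and 0 of 7 core subunits. Between the siRNAs, 14 members were called higher and 2 lower with siADAR1 #1 than with siADAR1 #2, where 32.8% of all genes tested were called, 16.1% higher and 16.7% lower. Both siRNAs are compared with the same siControl libraries, so the comparisons with siControl are not independent of each other. The shares over all genes tested are not matched to the members for expression level. Over the 3 comparisons 18 members were called at least once and 28 in none. The matching share of all genes tested was not counted. It is at least the 32.8% called between the siRNAs, so the 18 are not read as a result about the members.

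**Figure D1:**
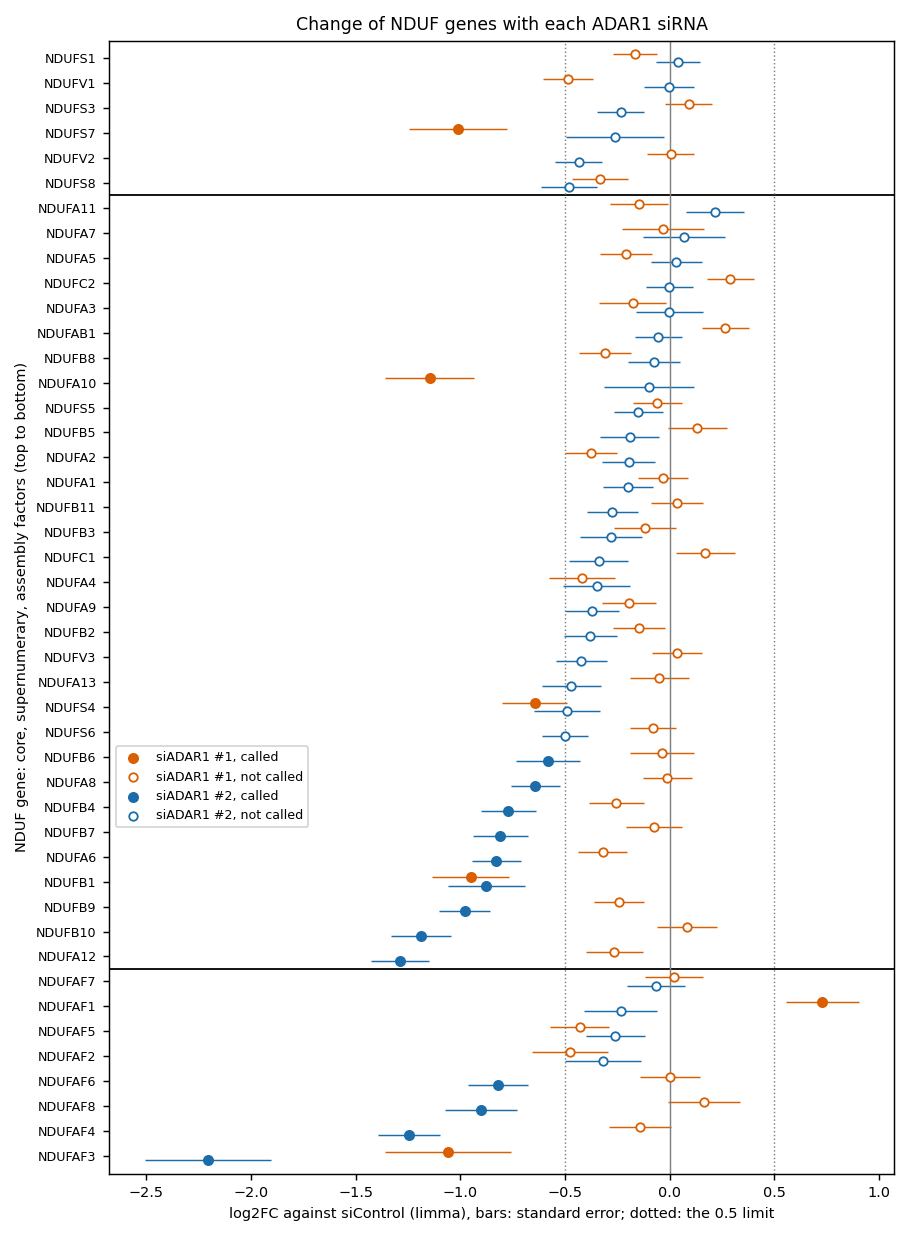
The log2FC against siControl (x axis, limma, bars give the standard error) of each member shown (y axis) with siADAR1 #1 (orange) and siADAR1 #2 (blue), where filled points were called and dotted lines mark a log2FC of 0.5 in either direction. The 13 filled blue points all lie to the left of 0, from NDUFB6 at -0.58 to NDUFAF3 at -2.21, and NDUFAF1 at 0.73 is the filled orange point on the right.

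The median log2FC over the 38 subunits was -0.15 with siADAR1 #1 and -0.31 with siADAR1 #2, beside medians over all genes tested of -0.02 and -0.01. Without NDUFA4 these medians were -0.15 and -0.28. Over the 8 assembly factors the median was -0.57 with siADAR1 #2, and with siADAR1 #1 it was -0.07, which turned to 0.08 when the libraries were centred on their medians and to 0.08 with quantile normalization. Median centring raised every log2FC by 0.15 with siADAR1 #1, by 0.02 with siADAR1 #2 and by 0.13 between the siRNAs. After it, 1951 genes of the whole table were called higher and 1706 lower with siADAR1 #1, where 1290 and 2212 had been called before, while the members called were 1 higher and 4 lower. The subunit median with siADAR1 #1 was then -0.0010, beside a median over all genes tested that had moved with it to 0.12. With siADAR1 #2 the members called were 13 lower after centring and 11 lower with quantile normalization, under which NDUFA8 and NDUFB6 were no longer called.

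**Figure D2:**
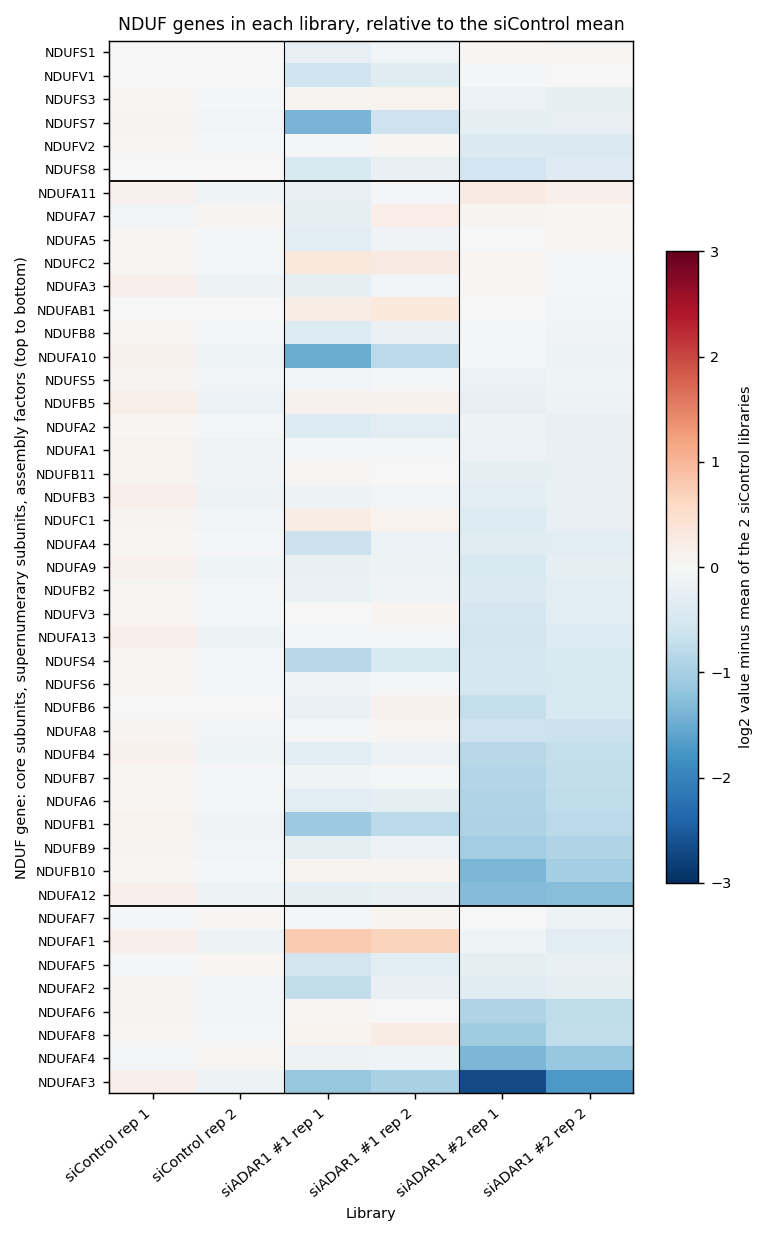
The log2 value of each member shown (rows) in each of the 6 libraries (columns) minus the mean of its 2 siControl values, on a color scale from -3 to 3, with lines between core subunits, supernumerary subunits and assembly factors. The darkest blue cells are NDUFAF3 in the siADAR1 #2 libraries, and NDUFA10 and NDUFS7 are darker with siADAR1 #1, most of all in its replicate 1, than with siADAR1 #2.

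Promoter windows were read for the members from RefSeq (GRCh38.p14, 250 bases before to 50 after the start of the gene), and 39 of the 46 members matched an entry by symbol, with 51 windows. The windows of 4 members are printed, 5′ to 3′ on the strand of the gene, so that the promoters of members that behaved differently can be set side by side. NDUFAF1, an assembly factor of the early membrane arm on the minus strand (window chr15:41402447-41402746), is shown as the member called higher with siADAR1 #1. NDUFAF4, an assembly factor of the matrix arm on the minus strand (chr6:96897842-96898141), is shown as an assembly factor called lower with siADAR1 #2. NDUFA12, a matrix arm subunit on the minus strand (chr12:95003648-95003947), is shown as the subunit with the lowest log2FC with siADAR1 #2. NDUFS7, on the plus strand (chr19:1383657-1383956), is shown as the core subunit called lower with siADAR1 #1.
NDUFAF1 promoter: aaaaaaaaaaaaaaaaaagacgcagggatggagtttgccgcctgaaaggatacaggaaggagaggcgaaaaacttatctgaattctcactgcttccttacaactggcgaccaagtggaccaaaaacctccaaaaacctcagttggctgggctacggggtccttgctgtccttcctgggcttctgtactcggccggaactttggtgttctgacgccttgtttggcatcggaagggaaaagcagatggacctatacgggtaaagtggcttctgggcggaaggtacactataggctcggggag
NDUFAF4 promoter: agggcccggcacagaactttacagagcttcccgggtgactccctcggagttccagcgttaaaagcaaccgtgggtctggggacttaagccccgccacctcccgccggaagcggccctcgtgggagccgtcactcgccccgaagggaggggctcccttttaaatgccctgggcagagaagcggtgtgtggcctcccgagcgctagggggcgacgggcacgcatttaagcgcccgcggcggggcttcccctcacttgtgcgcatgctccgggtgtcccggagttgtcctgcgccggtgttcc
NDUFA12 promoter: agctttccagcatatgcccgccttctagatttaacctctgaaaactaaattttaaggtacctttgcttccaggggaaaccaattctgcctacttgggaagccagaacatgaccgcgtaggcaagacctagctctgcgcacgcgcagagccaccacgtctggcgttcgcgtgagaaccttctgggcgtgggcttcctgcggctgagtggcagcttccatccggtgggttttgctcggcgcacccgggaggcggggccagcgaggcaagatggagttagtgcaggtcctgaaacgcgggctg
NDUFS7 promoter: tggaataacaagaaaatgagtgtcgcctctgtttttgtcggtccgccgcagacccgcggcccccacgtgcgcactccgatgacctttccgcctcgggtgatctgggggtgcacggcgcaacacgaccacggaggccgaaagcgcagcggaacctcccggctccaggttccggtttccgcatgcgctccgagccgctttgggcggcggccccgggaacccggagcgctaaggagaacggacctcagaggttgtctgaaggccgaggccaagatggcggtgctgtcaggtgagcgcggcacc

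Of the 7 nuclear-encoded core subunits 1 was called lower with siADAR1 #1 and 0 with siADAR1 #2. Of all genes tested, 10.6% and 15.5% were called lower, so counts among 7 genes do not set the core subunits apart. NDUFV1, NDUFV2 and NDUFS1 form the tip of the matrix arm, where NADH is oxidized. NDUFV1, the flavin-binding subunit, had 5509 and 5472 normalized counts in siControl, 3605 and 4258 with siADAR1 #1, and 5382 and 5573 with siADAR1 #2. Both siADAR1 #1 libraries lay below all the others, which overlapped, and with a log2FC of -0.49 ± 0.12 (SE, n = 2 per group, limma adjusted p = 0.0279) NDUFV1 stayed just inside the limit of 0.5. Without siADAR1 #1 replicate 2 it was called. NDUFV2 was at 3588 and 3370 in siControl, 3397 and 3581 with siADAR1 #1, and 2576 and 2566 with siADAR1 #2. Only the siADAR1 #2 libraries stood apart, below the rest, with a log2FC of -0.44 ± 0.11 (limma adjusted p = 0.0213) that also stayed within the limit. NDUFS1, which carries several of the iron-sulfur clusters, was at 7856 and 7706 in siControl, 6566 and 7327 with siADAR1 #1, and 8073 and 7926 with siADAR1 #2, with log2FC values of -0.17 and 0.04.

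NDUFS3, NDUFS7 and NDUFS8 belong to the part of the matrix arm where ubiquinone is reduced. NDUFS7, which holds the last cluster before ubiquinone, had 1511 and 1338 normalized counts in siControl, 540 and 919 with siADAR1 #1, and 1167 and 1207 with siADAR1 #2. The 6 values did not overlap between groups, with siControl highest and siADAR1 #1 lowest. The log2FC with siADAR1 #1 was -1.01 ± 0.24 (limma adjusted p = 0.0237), and with siADAR1 #2 it was -0.26 ± 0.24 (limma adjusted p = 0.457). Between the siRNAs NDUFS7 was called lower with siADAR1 #1, by -0.75 ± 0.24 (limma adjusted p = 0.0391), a call that was lost when any library other than siADAR1 #1 replicate 2 was left out, with the adjusted p then between 0.0738 and 0.146, and also without the filter, without a variance trend or with only the 4 libraries compared in the fit. An antisense lncRNA overlaps NDUFS7 and had 27 to 161 reads. NDUFS8 was at 2803 and 2801 in siControl, 2048 and 2413 with siADAR1 #1, and 1890 and 2130 with siADAR1 #2. All 4 siADAR1 libraries lay below siControl, with log2FC values of -0.33 and -0.48 and limma adjusted p-values of 0.126 and 0.0293. NDUFS3 was at 3217 and 3088 in siControl, 3337 and 3383 with siADAR1 #1, and 2793 and 2572 with siADAR1 #2, with log2FC values of 0.09 and -0.23 that passed no test.

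The 8 assembly factors differed widely among themselves. NDUFAF3 and NDUFAF4 act together in building the ubiquinone-reducing part of the matrix arm. NDUFAF3 had 940 and 755 normalized counts in siControl, 382 and 425 with siADAR1 #1, and 129 and 252 with siADAR1 #2. The groups did not overlap, and the siADAR1 #2 libraries were lowest. With siADAR1 #2 it had the lowest log2FC of the 46 members, -2.21 ± 0.30 (limma adjusted p = 0.00165), a call made in all 16 alternatives. With siADAR1 #1 its log2FC was -1.06 ± 0.30 (limma adjusted p = 0.0465), and this call was lost when any siControl or siADAR1 #1 library was left out, with quantile normalization, without the filter and without a variance trend, the adjusted p ranging from 0.0122 to 0.241 over the alternatives. NDUFAF3 shares exon positions with DALRD3 on the opposite strand, which had 121 to 400 reads. NDUFAF4 was at 1142 and 1191 in siControl, 1049 and 1064 with siADAR1 #1, and 450 and 533 with siADAR1 #2. Here only the siADAR1 #2 libraries stood far below the others, and the log2FC was -1.25 ± 0.15 with siADAR1 #2 (limma adjusted p = 9.76e-04) and -0.14 ± 0.15 with siADAR1 #1 (limma adjusted p = 0.559). The difference between the siRNAs, 1.10 ± 0.15 (limma adjusted p = 0.00114), was called in every alternative.

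NDUFAF8 is the partner of NDUFAF5, and NDUFAF6 acts in the assembly of the membrane arm around ND1. NDUFAF8 was at 774 and 743 normalized counts in siControl, 818 and 884 with siADAR1 #1, and 358 and 457 with siADAR1 #2. Its siADAR1 #1 libraries lay above and its siADAR1 #2 libraries below siControl, and the log2FC was -0.90 ± 0.17 with siADAR1 #2 (limma adjusted p = 0.00628) and 0.17 ± 0.17 with siADAR1 #1 (limma adjusted p = 0.556). Without siControl replicate 1 the adjusted p for siADAR1 #2 was 0.0530, the lone siControl library being assumed to vary like the other groups. NDUFAF6 was at 1171 and 1039 in siControl, 1123 and 1088 with siADAR1 #1, and 593 and 655 with siADAR1 #2. The siADAR1 #1 values lay within the siControl range and the siADAR1 #2 values were the lowest, with a log2FC of -0.82 ± 0.14 (limma adjusted p = 0.00445). Exon positions of NDUFAF6 are shared with TP53INP1 on the opposite strand (415 to 3147 reads) and with PLEKHF2 on the same strand (1024 to 1608 reads).

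NDUFAF1 moved the other way. It belongs, with ECSIT, ACAD9 and TMEM126B, to the complex that assembles part of the membrane arm. Its values were 626 and 508 normalized counts in siControl, 979 and 897 with siADAR1 #1, and 516 and 445 with siADAR1 #2. Both siADAR1 #1 libraries were above all the others, and the siADAR1 #2 libraries overlapped with siControl. The log2FC was 0.73 ± 0.17 with siADAR1 #1 (limma adjusted p = 0.0252) and -0.23 ± 0.17 with siADAR1 #2 (limma adjusted p = 0.36), and 0.96 ± 0.17 between the siRNAs (limma adjusted p = 0.00395). RTF1, on the opposite strand, shares exon positions with NDUFAF1 and had 3752 to 6562 reads.

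For the remaining assembly factors no call was made. NDUFAF2 was at 2008 and 1774 in siControl, 1139 and 1618 with siADAR1 #1, and 1461 and 1569 with siADAR1 #2, so that all 4 siADAR1 libraries were below siControl. Its log2FC values were -0.47 and -0.32, and without siADAR1 #1 replicate 2 it was called with siADAR1 #1. NDUFAF5 was at 1362 and 1467 in siControl, 970 and 1136 with siADAR1 #1, and 1149 and 1214 with siADAR1 #2, again with all 4 siADAR1 libraries below siControl, with log2FC values of -0.43 and -0.26 (limma adjusted p = 0.0727 and 0.211). NDUFAF7, a methyltransferase of the mitochondrial matrix, overlapped between all groups, with 976 to 1153 normalized counts over the 6 libraries and log2FC values of 0.02 and -0.07.

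**Figure D3:**
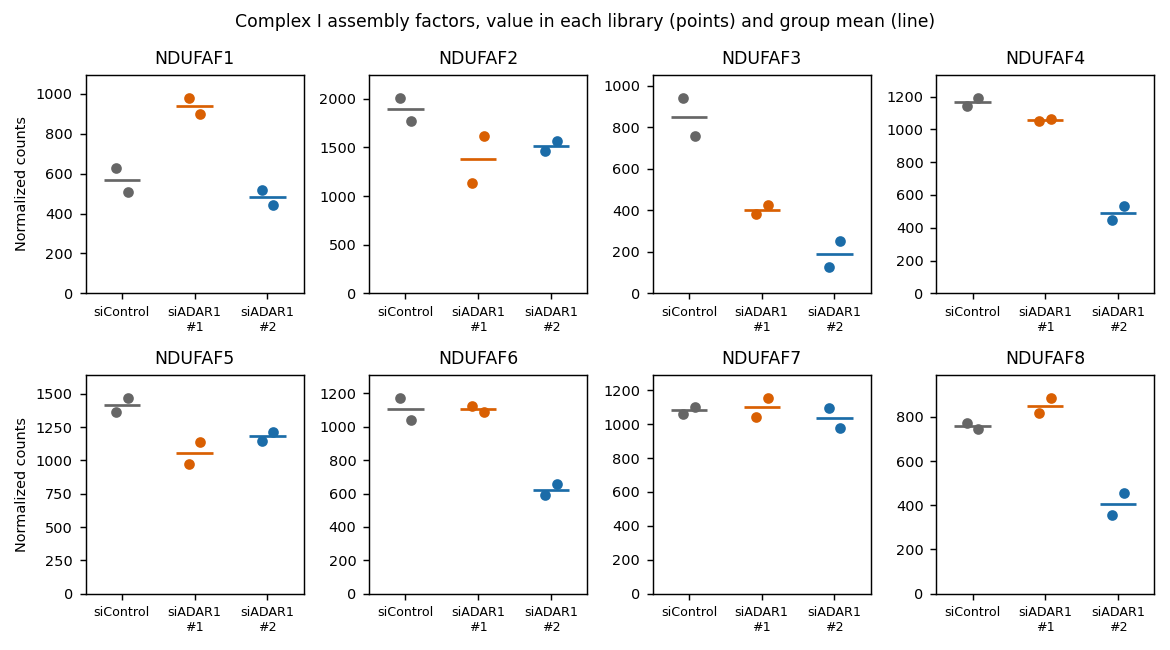
Normalized counts (y axis, from 0) of the 8 assembly factors in each library (points, 2 per group) with the group mean (line), by transfection (x axis). NDUFAF4, NDUFAF6 and NDUFAF8 are low with siADAR1 #2 only, NDUFAF3 is lower with both siRNAs, NDUFAF1 is high with siADAR1 #1, and NDUFAF7 overlaps throughout.

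Most of the calls with siADAR1 #2 among the supernumerary subunits were in the NDUFB series, which belongs to the distal membrane arm. Of its 11 members, 6 were called lower with siADAR1 #2 (median log2FC -0.58), where 15.5% of all genes tested were, and 1 with siADAR1 #1 (median -0.12), where 10.6% of all genes tested were. NDUFB10 had 3351 and 3201 normalized counts in siControl, 3480 and 3454 with siADAR1 #1, and 1268 and 1623 with siADAR1 #2. Only siADAR1 #2 was low, with siADAR1 #1 slightly above siControl, and the log2FC of -1.19 ± 0.14 (limma adjusted p = 0.00101) and the difference of 1.27 ± 0.14 between the siRNAs (limma adjusted p = 5.76e-04) were called in all 16 alternatives. NDUFB9 was at 8039 and 7092 in siControl, 6115 and 6670 with siADAR1 #1, and 3638 and 4025 with siADAR1 #2. Its 3 groups did not overlap, and the log2FC was -0.98 ± 0.12 with siADAR1 #2 (limma adjusted p = 0.00111) and -0.24 ± 0.12 with siADAR1 #1 (limma adjusted p = 0.211). TATDN1, on the opposite strand, shares exon positions with NDUFB9 and had 746 to 2042 reads.

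NDUFB7 was at 1700 and 1583 normalized counts in siControl, 1515 and 1603 with siADAR1 #1, and 886 and 987 with siADAR1 #2. NDUFB4 was at 5868 and 4977 in siControl, 4259 and 4819 with siADAR1 #1, and 3053 and 3287 with siADAR1 #2. In both genes the siADAR1 #2 libraries were the lowest, and the log2FC was -0.81 ± 0.13 for NDUFB7 (limma adjusted p = 0.00334) and -0.77 ± 0.13 for NDUFB4 (limma adjusted p = 0.00383). NDUFB6 was at 3307 and 3384 in siControl, 2908 and 3654 with siADAR1 #1, and 2034 and 2452 with siADAR1 #2, with a log2FC of -0.58 ± 0.15 (limma adjusted p = 0.0235). The siADAR1 #1 values of NDUFB6 lay on both sides of siControl, and its call with siADAR1 #2 was the least stable of the 13: it was lost without siControl replicate 1, siControl replicate 2 or siADAR1 #2 replicate 1, with quantile normalization and without a variance trend, with the adjusted p ranging from 0.00877 to 0.15 over the alternatives. SMIM27 shares exon positions with NDUFB6 on the opposite strand and had 162 to 250 reads.

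NDUFB1 was the subunit called lower with both siRNAs. It had 705 and 615 normalized counts in siControl, 307 and 376 with siADAR1 #1, and 344 and 372 with siADAR1 #2. All 4 siADAR1 libraries lay below siControl and the siRNAs overlapped, with a log2FC of -0.95 ± 0.18 with siADAR1 #1 (limma adjusted p = 0.0128) and -0.88 ± 0.18 with siADAR1 #2 (limma adjusted p = 0.00953), and a difference of -0.07 ± 0.18 (limma adjusted p = 0.787). Its call with siADAR1 #2 was lost without siControl replicate 1 or siADAR1 #2 replicate 1, where its adjusted p was at most 0.077. NDUFAF3 was the other member called with both.

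NDUFA12, NDUFA6 and NDUFA8 were the members of the NDUFA series called lower with siADAR1 #2, 3 of 14. Of all genes tested, 15.5% were called lower. NDUFA12, a late-joining subunit of the matrix arm, had 3106 and 2540 normalized counts in siControl, 2279 and 2398 with siADAR1 #1, and 1133 and 1163 with siADAR1 #2. The siADAR1 #2 libraries were far below all the others, with a log2FC of -1.29 ± 0.14 (limma adjusted p = 6.72e-04), against -0.26 ± 0.14 with siADAR1 #1 (limma adjusted p = 0.227). NDUFA6, which binds the acyl carrier protein NDUFAB1, was at 3961 and 3609 in siControl, 2975 and 3084 with siADAR1 #1, and 2037 and 2224 with siADAR1 #2. Its groups did not overlap, with siADAR1 #2 lowest, and the log2FC was -0.83 ± 0.12 with siADAR1 #2 (limma adjusted p = 0.00192) and -0.32 ± 0.12 with siADAR1 #1 (limma adjusted p = 0.103). NDUFA8 was at 3856 and 3456 in siControl, 3509 and 3745 with siADAR1 #1, and 2354 and 2325 with siADAR1 #2, with only siADAR1 #2 apart and a log2FC of -0.64 ± 0.12 (limma adjusted p = 0.00523). With quantile normalization it was not called, its log2FC then being -0.499.

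NDUFA10 and NDUFS4 were called with siADAR1 #1 and not with siADAR1 #2, and the difference between the siRNAs was called for NDUFA10. NDUFA10, a membrane arm subunit, had 5084 and 4223 normalized counts in siControl, 1654 and 2645 with siADAR1 #1, and 4516 and 4147 with siADAR1 #2. Its siADAR1 #1 libraries lay far below the others, which overlapped, and the log2FC was -1.15 ± 0.21 with siADAR1 #1 (limma adjusted p = 0.0113), -0.10 ± 0.21 with siADAR1 #2 (limma adjusted p = 0.773) and -1.05 ± 0.21 between the siRNAs (limma adjusted p = 0.00681). NDUFS4, a matrix arm subunit, was at 1882 and 1773 in siControl, 1025 and 1330 with siADAR1 #1, and 1267 and 1334 with siADAR1 #2. All 4 siADAR1 libraries were below siControl and the siRNAs overlapped. Its log2FC of -0.64 ± 0.16 with siADAR1 #1 (limma adjusted p = 0.0268) was called, although not after median centring or without the filter, and its log2FC of -0.49 ± 0.16 with siADAR1 #2 (limma adjusted p = 0.0486) fell just within the limit, with a difference of -0.15 ± 0.16 (limma adjusted p = 0.486) between them. NDUFC1, a small subunit of the membrane arm, was called between the siRNAs alone, at 1370 and 1214 in siControl, 1512 and 1394 with siADAR1 #1, and 963 and 1078 with siADAR1 #2, a difference of 0.51 ± 0.14 (limma adjusted p = 0.0238) that was lost without siADAR1 #1 replicate 1 or siADAR1 #2 replicate 1, with quantile normalization and without a variance trend. NAA15, on the opposite strand, shares exon positions with NDUFC1 and had 2162 to 9201 reads.

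Of the 6 calls with siADAR1 #1, 0 held in all 16 alternatives, while the direction of each log2FC was the same in all of them. Leaving out siControl replicate 1 or siControl replicate 2 left 0 of the 6 calls, with adjusted p-values of the lost members of 0.0733 to 0.241 and 0.0555 to 0.138 (limma, with the lone siControl library assumed to vary like the other groups). Leaving out siADAR1 #1 replicate 1 left 1 call, NDUFA10, and leaving out siADAR1 #1 replicate 2 gave 9. Over the alternatives the log2FC ranged from -1.48 to -0.81 for NDUFA10, from -1.10 to -0.77 for NDUFB1, from -1.22 to -0.86 for NDUFAF3, from 0.58 to 0.88 for NDUFAF1, from -1.39 to -0.63 for NDUFS7 and from -0.83 to -0.46 for NDUFS4. In these 2 libraries the members differed by up to 0.77 on the log2 scale (NDUFS7), and NDUFA10, NDUFS7 and NDUFV1 were lowest in replicate 1. With siADAR1 #2, by contrast, 9 of the 13 calls held in all 16 alternatives, and 10 to 14 members were called when a library was left out. Between the siRNAs 10 of the 16 calls held in all alternatives, and without siADAR1 #2 replicate 1 the count fell to 10.

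The other 19 supernumerary subunits were called in no comparison. They were NDUFA1, NDUFA2, NDUFA3, NDUFA4, NDUFA5, NDUFA7, NDUFA9, NDUFA11, NDUFA13, NDUFAB1, NDUFB2, NDUFB3, NDUFB5, NDUFB8, NDUFB11, NDUFC2, NDUFS5, NDUFS6 and NDUFV3, with 417 to 5100 normalized counts over the libraries. Their log2FC ranged from -0.42 (NDUFA4) to 0.29 (NDUFC2) with siADAR1 #1 and from -0.50 (NDUFS6) to 0.22 (NDUFA11) with siADAR1 #2. Among them NDUFA13 (also known as GRIM-19), NDUFS6 and NDUFV3 passed the adjusted p but not the limit on log2FC with siADAR1 #2, with log2FC values of -0.47, -0.50 and -0.42. NDUFAB1, the mitochondrial acyl carrier protein, was at 2909 and 2903 in siControl, 3367 and 3632 with siADAR1 #1, and 2864 and 2735 with siADAR1 #2, so that siADAR1 #1 was highest, with a log2FC of 0.27 ± 0.11 that did not pass the test (limma adjusted p = 0.142). Of the NDUFA4 paralogs, NDUFA4L2 was low, with 19 to 50 normalized counts, while C15orf48 ranged from 20 to 366, and neither was called. Their log2FC values were -0.25 and 2.22 with siADAR1 #1 and 0.31 and 1.89 with siADAR1 #2, listed from low to high. The smallest adjusted p in a pairwise comparison was 0.130 (limma, C15orf48).

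When both siRNAs were taken as 1 group against siControl, 0 of the 46 members and 0 of all genes tested were called by limma, and voom on the recovered reads also called 0. ADAR, the target of both siRNAs, was thus not called either, with a log2FC of -2.53 (limma adjusted p = 0.0988). In this fit a difference between the siRNAs counts as spread, so 0 calls do not show that no change was shared. Of the members, 5 had an unadjusted p under 0.05, where 14.0% of all genes tested did, and the smallest adjusted p was 0.157 (NDUFB1). When the average of the changes with each siRNA was tested in the fit with 3 groups, 10 members were called and all were lower, where 17.2% of all genes tested were called, 11.1% lower and 6.04% higher: NDUFA6, NDUFA10, NDUFA12, NDUFAF3, NDUFAF4, NDUFB1, NDUFB4, NDUFB9, NDUFB10 and NDUFS4. This average is called also where only 1 siRNA moved a gene, as for NDUFA10 and NDUFB10. In 17 members each of the 4 siADAR1 values was below each siControl value, and in 0 members above, where 16.6% and 12.0% of all genes tested did so. Both siADAR1 #1 values were below both siControl values in 23 members and above them in 7 (32.8% and 28.4% of all genes tested), and for siADAR1 #2 this held in 33 and 2 members (35.0% and 32.3%). The siADAR1 #1 values were below those of siADAR1 #2 in 11 members and above them in 28 (34.4% and 34.9%). The 17 included 13 subunits and 4 assembly factors.

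The 13 members called lower with siADAR1 #2 had a median GC content of 46.2% and a median canonical length of 691 bases, against 48.5% and 758 bases for the other 33 members, and their median siControl value was 2823 normalized counts against 2802. Over all members this median was 2812, and over all genes tested with a known length it was 308. The Spearman correlation of log2FC with siADAR1 #2 and mean log2 value was -0.18 over all genes tested and 0.21 over the members. The part of level in the calls was not tested. Of the 63 NDUF pseudogenes in the table, 62 had 20 reads or fewer in every library, and NDUFV2P1 had 118 to 210 reads. Exon positions shared with another gene of 100 reads or more were found for 19 of the 46 members and for 7 of the 18 called ones. Whether the counting used the strand is not given in the sources used here, so reads from such shared positions cannot be told apart.

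Other genes of complex I were compared in the same way. Of 12 assembly factors without an NDUF name, 3 were called lower with siADAR1 #1 and 5 with siADAR1 #2, beside 10.6% and 15.5% of all genes tested, and none was called higher. Between the siRNAs, 4 were called higher and 3 lower with siADAR1 #1, beside 16.1% and 16.7% of all genes tested. The 3 lower were FOXRED1, NUBPL and DMAC1. ECSIT, the partner of NDUFAF1, was at 1338 and 1203 normalized counts in siControl, 1035 and 1126 with siADAR1 #1, and 338 and 488 with siADAR1 #2, a log2FC of -1.64 ± 0.20 with siADAR1 #2 (limma adjusted p = 9.90e-04). Only its siADAR1 #2 libraries stood far below siControl. COA1 and TMEM70 were also called with siADAR1 #2, with a log2FC of -1.12 each. The 7 complex I subunits encoded by mitochondrial DNA were not called in any comparison, and their median log2FC was -0.19 with siADAR1 #1 and 0.25 with siADAR1 #2. Between the siRNAs all 7 were lower with siADAR1 #1, with a median log2FC of -0.44. There MT-ND5 and MT-ND3 passed the adjusted p but not the limit on log2FC. MT-ND5 was at 170475 and 137683 in siControl, 145869 and 123385 with siADAR1 #1, and 207879 and 171881 with siADAR1 #2, so that the siADAR1 #2 libraries were highest.

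Of the genes for iron-sulfur cluster assembly, which supplies the clusters of the matrix arm, 2 of 10 were called lower with siADAR1 #1 and 4 with siADAR1 #2, beside 10.6% and 15.5% of all genes tested, and 0 were called higher. ISCU, the scaffold on which clusters are built, was low with siADAR1 #1 (1218 and 1324 normalized counts against 2578 and 2508 in siControl) and was at 2888 and 2612 with siADAR1 #2. LYRM4 and NFU1 had log2FC values of -0.92 and -0.94 with siADAR1 #2, where both were called, and of 0.18 and -0.15 with siADAR1 #1. In the other respiratory complexes, with siADAR1 #1 and siADAR1 #2 in turn, 2 and 2 of 8 genes of complex II, 0 and 1 of 9 of complex III, 2 and 0 of 10 of complex IV, and 1 and 3 of 17 of ATP synthase were called, all of them lower, where 10.6% and 15.5% of all genes tested were called lower. SDHD, a membrane anchor of complex II, and ATP5PO, a stalk subunit of ATP synthase, had log2FC values of -2.25 and -1.98 with siADAR1 #2. COX5A and COX6B1 of complex IV had log2FC values of -1.20 and -1.10 with siADAR1 #1 and, like NDUFA10 and NDUFS7, were not called with siADAR1 #2. Of 6 mitochondrial proteases, LONP1 was called higher with siADAR1 #2, with a log2FC of 0.51, beside 11.1% of all genes tested.

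Of 11 regulators of mitochondrial gene expression tested, 5 were called lower with siADAR1 #2 and 0 higher, where 15.5% and 11.1% of all genes tested were. Over the 11 the log2FC with siADAR1 #2 ranged from -1.24 to 0.49, with a median of -0.31. The regulators whose values follow are all among the 5 called lower. With siADAR1 #1, 2 were called lower and 1, GABPA, higher, where 10.6% and 6.18% of all genes tested were. NRF1, a transcription factor of nuclear genes for the respiratory chain, was at 1439 and 1170 normalized counts in siControl, 1276 and 1357 with siADAR1 #1, and 645 and 680 with siADAR1 #2. Only the siADAR1 #2 libraries were low, with a log2FC of -0.97 ± 0.15 (limma adjusted p = 0.00277). GABPB1, the partner of the ETS protein GABPA, was at 3472 and 2585 in siControl, 1639 and 1745 with siADAR1 #1, and 1222 and 1312 with siADAR1 #2, called lower with both siRNAs (log2FC -0.82 and -1.24). TFAM, the packaging and transcription factor of mitochondrial DNA, had a log2FC of -0.61 with siADAR1 #2 and of 0.35 with siADAR1 #1. YY1, a transcription factor of such genes that is on the list and is described here after its values were seen, was at 5236 and 4206 in siControl, 5271 and 4785 with siADAR1 #1, and 3147 and 3142 with siADAR1 #2, a log2FC of -0.58 ± 0.14 (limma adjusted p = 0.0151).

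**Figure D4:**
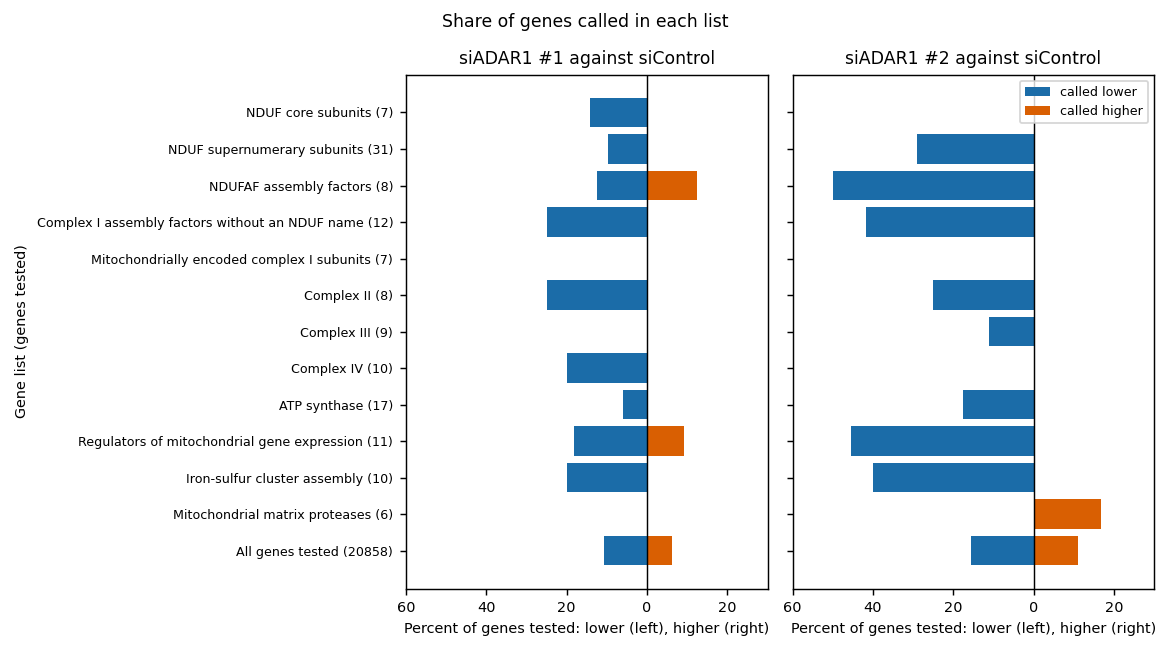
Percent of the genes tested in each list that were called lower (blue, left of 0) or higher (orange, right of 0) with siADAR1 #1 (left panel) and siADAR1 #2 (right panel), with the number of genes tested in parentheses. With siADAR1 #2 the bars of the NDUFAF assembly factors (4 of 8) and of the supernumerary subunits (9 of 31) reach further left than that of all genes tested (15.5%), and the core subunits have no bar. The same holds for the other assembly factors (5 of 12), the regulators (5 of 11) and iron-sulfur cluster assembly (4 of 10). It also holds for complex II (2 of 8) and ATP synthase (3 of 17).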

How the data were processed

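Poly(A)+ RNA of the 3 transfections was sequenced by the authors, who trimmed adapters with Atropos and worked in the bcbio-nextgen pipeline. FastQC, featureCounts, Salmon and the build GRCh38 are named in the submitters' processing notes. The deposited values are log2 values, made by the authors from size-factor-normalized counts with the variance-stabilizing transformation of DESeq2. This transformation was undone here, and 100% of the values then came out as whole numbers (tolerance 0.1). These were taken as reads and used for normalized counts, for depth and for 1 alternative test. The paper's methods name featureCounts but prefer gene counts estimated from Salmon, so the numbers called reads here may be rounded estimates. A log2FC is a difference of the deposited log2 values, and it understates the change of low genes.

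The deposited log2 values were fitted in R 4.3.3 with the lmFit and eBayes functions of limma 3.58.1 (trended variance, two-sided tests, Benjamini-Hochberg adjustment) for genes whose mean passed log2 of 10, which corresponds to 7.617 normalized counts. Pairwise comparisons used 1 fit with 3 groups, and both siRNAs together were set against siControl in a fit with 2 groups. The steps were tested on simulated data. Symbols, classes and lengths came from GENCODE release 44, which gave a symbol for 57830 of the 58333 identifiers, and promoters from RefSeq. The members and lists were chosen with earlier results of these data known. All 46 members entered every fit and count, and the values of 1 member and of 1 marker gene are not reported here. Those described in full are, apart from that member, the core subunits, the assembly factors and every subunit called in a pairwise comparison, together with up to 3 genes of each other list, those with the smallest adjusted p. NDUFAB1 and a few others are described beyond this rule and were chosen after their values were seen. Alternatives covered the filter (none, or 50 normalized counts), median centring, quantile normalization, the log2 of 1 plus the normalized count, voom on recovered reads, eBayes without a trend and robust eBayes, fewer libraries in the fit, the replicate number as a block, and each library left out.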

Additional observations from a re-analysis of the deposited data

How the results depend on the processing

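Of the counts of members called, that with siADAR1 #1 against siControl depended most on the settings. It was 6, fell to 1 with eBayes but no variance trend and ranged from 0 to 9 when a library was left out. With siADAR1 #2 it was 13 and ranged from 10 to 14 when a library was left out. Between the siRNAs it was 16, fell to 10 without a trend and ranged from 10 to 16 with a library left out. With both siRNAs as 1 group it was 0, and it was 10 when the siRNA changes were averaged. The median log2FC of the subunits with siADAR1 #1 was -0.15, moved to -0.0010 after median centring and to -0.024 with quantile normalization, and ranged from -0.24 to -0.064 with a library left out. That of the assembly factors was -0.07, moved to 0.075 after centring and to 0.080 with quantile normalization, and ranged from -0.10 to -0.07. With siADAR1 #2 the medians moved from -0.31 to -0.16 (subunits) and from -0.57 to -0.45 (assembly factors) with quantile normalization, and ranged from -0.41 to -0.23 and from -0.66 to -0.52 with a library left out. Between the siRNAs they moved from 0.20 to 0.33 and from 0.89 to 1.02 after median centring, and ranged from 0.18 to 0.27 and from 0.71 to 0.93. With both siRNAs as 1 group they were -0.25 and -0.38, moved to -0.13 and -0.25 with quantile normalization and, for the assembly factors, to -0.30 after centring, and ranged from -0.30 to -0.17 and from -0.50 to -0.30. Where a value was not explained by fewer libraries, the cause was not tested. Of the log2FC values of single members under an alternative, 64 no longer passed the threshold and 27 newly passed it. A further 22 values that were not called changed sign by at least their standard error, and the other 2831 kept their side of the threshold, none of the called ones with a change of sign.

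The column names carry replicate numbers. The replicate 2 minus replicate 1 differences of 20858 genes correlated by 0.106 (siControl and siADAR1 #1), 0.110 (siControl and siADAR1 #2) and 0.162 (the siRNAs), so same-numbered libraries deviated together to a small extent. With the replicate block the counts of members called were 6, 13, 16 and 0, as without it. With 2 libraries per group, the number of libraries limits the precision of every value, while the floor of 3 reads lay far below the 114 or more reads of each member.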
